A study of Mus musculus with 15 samples.

Results

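The Ikaros family of zinc finger transcription factors was followed across CD8+ T cells primed in mice with antigen alone or with antigen and costimulation. The family was taken as the 5 genes with the symbols Ikzf1 (Ikaros), Ikzf2 (Helios), Ikzf3 (Aiolos), Ikzf4 (Eos) and Ikzf5 (Pegasus), which is 5 of the 55536 annotated genes in the count table, and all 5 passed the filter on low counts. The cells were OT-I cells, CD8+ T cells from OT-I TCR transgenic, Rag1-/- or Rag2-/- C57BL/6J mice whose T cell receptor recognises an ovalbumin peptide, transferred into wild-type C57BL/6J mice. Recipients of the Ag group were given the peptide with a control rat IgG, and those of the Ag+Costim group the peptide with agonist antibodies against OX40 and 4-1BB, a pair of costimulatory receptors of activated T cells. Both groups held 5 libraries of sorted cells from spleen and lymph nodes, collected at 4 days per the labels and slightly earlier per the study's methods. The study as a whole used mice of both sexes, without naming the sex by group. The labels also name a Naive group, which was not analysed here. The labels number the libraries but do not tie them to single mice, so that the p-values measure the spread between these libraries.

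Ikaros family proteins bind DNA through N-terminal zinc fingers and pair with each other through C-terminal fingers, and they recruit the NuRD, Sin3 and CtBP corepressor complexes to lymphocyte genes. Ikaros and Aiolos are abundant in mature T and B cells, Helios and Eos are best known from regulatory T cells, and Pegasus is a more distant member. Alternative splicing of the N-terminal finger exons of Ikzf1 gives isoforms that differ in DNA binding.

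The sequences that tell the transcript forms apart are given first, from the GENCODE vM21 transcripts on mm10, because the results turn on these exons and ends. Exon 4 of Ikzf1 (chr11:11748311-11748571, + strand) is a coding exon of 261 bases that encodes the first N-terminal finger, and its length keeps the reading frame when it is skipped. In the lines that follow, exon 4 bases are in capitals and the neighbouring exons in lower case.
Ikzf1 exon 4 start: gtgatcgaggcatggCCAGTAATGTTAAAG
Ikzf1 exon 4 end: AAAGAAGTCATACTGgtgaacggcctttcc
Ikzf1 exon 4 skipped: gtgatcgaggcatgggtgaacggcctttcc

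The next exon, of 168 bases, carries the following N-terminal fingers and has the same length in Ikzf1, Ikzf2, Ikzf3 and Ikzf4, so that it shows how close the members are. Its bases were identical at 82.1% of positions between Ikzf1 and Ikzf4, at 78.6% between Ikzf1 and Ikzf2, at 76.8% between Ikzf1 and Ikzf3 and at 73.2% between Ikzf2 and Ikzf3. The first 30 bases are shown with the bases that differ from Ikzf1 in capitals, at chr11:11754007-11754036 (+ strand), chr1:69570631-69570660, chr11:98488990-98489019 and chr10:128640279-128640308 (all - strand).
Ikzf1: gtgaacggcctttccagtgcaaccagtgtg
Ikzf2: gtgaGcggccCttccaCtgTaaccagtgCg
Ikzf3: gCgaacgCccGttccagtgTaaTcagtgCg
Ikzf4: gGgaGAggccCttccaCtgTaaTcagtgtg

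The libraries held 59598556 to 449401065 counts in Ag and 332290834 to 639070261 counts in Ag+Costim. CD8 T cell markers were high in every library. Their 8 genes summed to 3973 to 7594 CPM in Ag and to 5450 to 6413 CPM in Ag+Costim. CPM are a gene's counts over the library's total on the usual scale, with that total scaled by the trimmed mean of M-values (TMM). The Ag libraries stood apart from each other. Counts were found on 48058, 51778 and 40441 genes in Ag replicates 1, 3 and 4 against 21779 and 20714 in Ag replicates 2 and 5 and 28727 to 30340 in Ag+Costim. The 20 cell cycle genes summed to 1569, 7308 and 1684 CPM in Ag replicates 1, 3 and 4, to 11639 and 12884 CPM in Ag replicates 2 and 5, and to 11681 to 14646 CPM in Ag+Costim. Results are therefore also given without Ag replicates 2 and 5, the libraries of lowest weight in the weighted fit, and without Ag replicates 1, 3 and 4, an alternative added after seeing the data.

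Ikzf1 had a higher level in every Ag+Costim library than in any Ag library. Its level, in the same TMM-scaled CPM, was 142, 136, 149, 159 and 118 in Ag replicates 1 to 5 and 235, 241, 218, 270.4 and 247 in Ag+Costim replicates 1 to 5. The groups did not overlap, and their means of 141 ± 15.3 and 242 ± 19.2 CPM (SD, n = 5) gave a ratio of 1.72. Of all 24262 genes tested, 4.48% were likewise higher without overlap and 1.13% lower, and 11.3% of the 8626 genes with a mean of at least 10 CPM were higher. The log2 fold change was 0.78 ± 0.13 (SE; edgeR's quasi-likelihood test, Benjamini-Hochberg adjusted p over all genes = 0.117), and it did not pass the threshold of 0.05. In that fit 0 of the 24262 genes passed (0.0%), while 4501 had an unadjusted p under 0.05, 1915 of them higher in Ag+Costim (7.89%) and 2586 lower (10.7%). The exact permutation test of Ikzf1 over the libraries gave p = 0.00794, the smallest that 5 against 5 libraries allow, and 0.142 after adjustment over all genes, a test added after seeing the data.

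The Ikzf1 difference kept its direction and passed the threshold against either set of Ag libraries. Without Ag replicates 2 and 5 the log2 fold change was 0.81 ± 0.11 (edgeR adjusted p = 5.9e-04), and without Ag replicates 1, 3 and 4 it was 0.96 ± 0.11 (edgeR adjusted p = 0.00693). Ag replicates 2 and 5 held the lowest Ikzf1 levels in Ag. Leaving out Ag replicates 1, 3 and 4 therefore lowers the Ag level, and the larger value is no separate support. DESeq2 gave 0.65 ± 0.14 (adjusted p = 4.9e-04) and limma voom with library weights 0.68 ± 0.09 (adjusted p = 8.2e-05). These fits called 48.8%, 10.8%, 16.3% and 52.2% of the genes they tested, in that order. The groups also stayed apart when the libraries were scaled by DESeq2 size factors, upper quartiles or total counts, with log2 ratios of the means of 0.64, 0.53 and 0.47. These scalings moved the median log2 fold change of all genes from -0.32 to -0.48, -0.58 and -0.65. With TMM, the 8626 genes with at least 10 CPM, Ikzf1 among them, had a median of 0.24, and 6520 of them were above 0.

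Ikzf3, the closest in level to Ikzf1, showed no difference beyond the spread between libraries. Its level was 133, 184, 131, 224 and 171 CPM in Ag, and 181, 197, 187, 154 and 184 CPM in Ag+Costim. The Ag+Costim libraries all lay within the Ag range. The log2 fold change was 0.10 ± 0.17 (edgeR adjusted p = 0.721), and its sign turned under other scalings, to -0.04 with DESeq2 size factors, -0.13 with upper quartiles and -0.18 with total counts.

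Ikzf2 was low in all Ag+Costim libraries and uneven among the Ag libraries. It stood at 42.5, 8.95, 18.7, 32.8 and 5.82 CPM in Ag, and at 8.22, 6.98, 7.24, 5.02 and 5.45 CPM in Ag+Costim. Ag replicates 1 to 4 were above every Ag+Costim library, Ag replicate 2 by the least, and Ag replicate 5 lay inside their range. The log2 fold change was -1.72 ± 0.48 (edgeR adjusted p = 0.201). It was -2.14 ± 0.27 without Ag replicates 2 and 5 (edgeR adjusted p = 5.8e-04) and -0.14 ± 0.25 without Ag replicates 1, 3 and 4 (edgeR adjusted p = 0.740). DESeq2 and limma voom with library weights also placed it past the threshold (adjusted p = 0.00708 and 2.8e-05), and they called 14.4% and 26.4% of all genes lower. The fit without Ag replicates 2 and 5 called 48.8% of all genes in either direction. Those replicates held the lowest Ikzf2 levels in Ag and the lowest weights in limma voom, 0.0986 and 0.0656. Leaving them out or weighting them down therefore raises the Ag level and is no separate support.

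Ikzf4 was the member with the lowest level and followed the same libraries. It measured 1.905, 0.255, 3.85, 3.02 and 0.116 CPM in Ag, on 860, 81, 273, 977 and 43 counts, and 0.518, 0.507, 0.367, 0.351 and 0.235 CPM in Ag+Costim, on 87 to 214 counts. Ag replicates 1, 3 and 4 were above all Ag+Costim libraries, and Ag replicate 5 was below all of them. The log2 fold change was -2.21 ± 0.86 (edgeR adjusted p = 0.257). It was -2.76 ± 0.41 without Ag replicates 2 and 5 (edgeR adjusted p = 0.00113), and it turned to 1.11 ± 0.61 without Ag replicates 1, 3 and 4 (edgeR adjusted p = 0.253). DESeq2 and limma voom with library weights called it lower (adjusted p = 0.0311 and 4.2e-04), as they did 14.4% and 26.4% of all genes. Ag replicates 2 and 5 also held the lowest Ikzf4 levels in Ag. The fits that leave them out or weight them down are therefore no separate support here either.

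The sums of B cell, erythroid, CD4 T cell and dendritic cell markers were higher in the same Ag libraries as Ikzf2 and Ikzf4. Those of myeloid, NK cell and regulatory T cell markers were not. The 6 B cell markers summed to 132, 342 and 185 CPM in Ag replicates 1, 3 and 4, to 33.2 and 40.2 CPM in Ag replicates 2 and 5, and to 30.4 to 50.6 CPM in Ag+Costim. Pax5, a factor that defines B cells, was listed at 0 in Ag replicates 2 and 5. The 6 erythroid markers summed to 126, 1103 and 43.7 CPM in Ag replicates 1, 3 and 4, to 30.5 and 14.7 CPM in Ag replicates 2 and 5, and to 3.80 to 39.8 CPM in Ag+Costim. Of these 6 genes, 1 or 2 were at 0 in Ag replicates 2 and 5 and Ag+Costim replicates 1 and 2. The 3 CD4 T cell markers summed to 17.1, 8.18 and 25.8 CPM in Ag replicates 1, 3 and 4, to 3.66 and 5.15 CPM in Ag replicates 2 and 5, and to 3.07 to 7.48 CPM in Ag+Costim. Cd4 itself did not follow this order. It had 1.69, 5.07 and 0.714 CPM in Ag replicates 1, 3 and 4 and 0.0347 and 2.70 CPM in Ag replicates 2 and 5. Its Ag+Costim range was 0.0618 to 0.923 CPM. For the 4 dendritic cell markers the sums were 5.94, 20.3 and 5.45 CPM, 1.24 and 2.58 CPM, and 2.72 to 4.54 CPM. The 6 myeloid markers summed to 48.5, 115 and 58.6 CPM in Ag replicates 1, 3 and 4, to 72.5 and 85.1 CPM in Ag replicates 2 and 5, and to 79.6 to 162 CPM in Ag+Costim. Both NK cell markers together reached 5.44, 2.09, 16.4, 6.99 and 6.77 CPM in Ag replicates 1 to 5, and 0.473 to 2.16 CPM in Ag+Costim. The 4 regulatory T cell markers summed to 103 to 177 CPM in Ag, and 146 to 167 CPM in Ag+Costim, and Foxp3, which defines these cells, was between 0.0725 and 0.926 CPM in Ag, and between 0.0927 and 0.720 CPM in Ag+Costim. The part of these markers, of the cell cycle genes and of the number of genes detected in the Ikzf2 and Ikzf4 values was not tested. In bulk libraries, fewer cells of a type and less RNA per cell cannot be told apart.

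**Figure D1:**
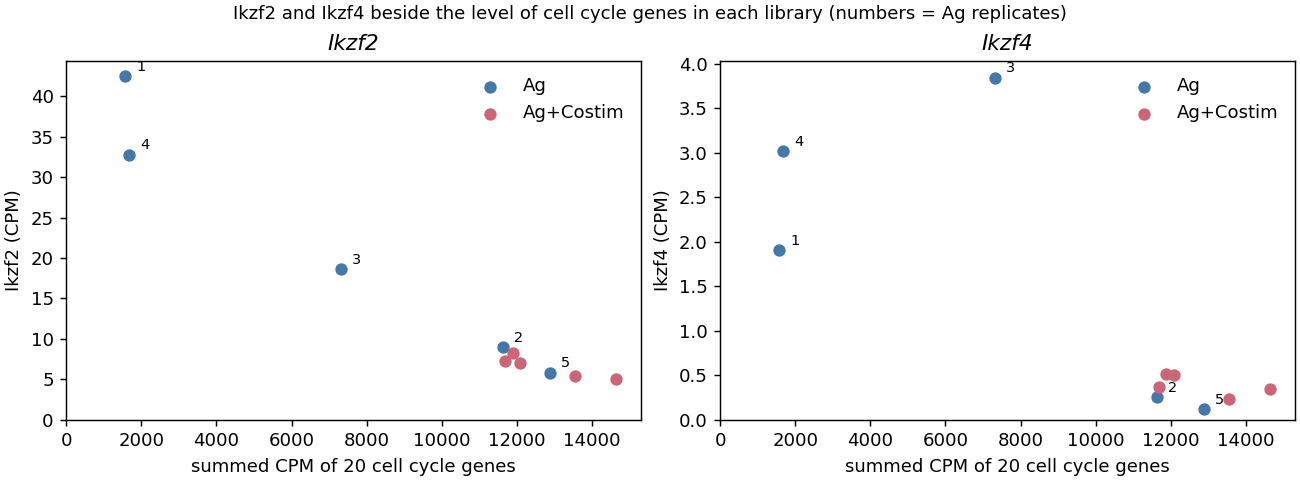
Level of Ikzf2 (left, CPM) and Ikzf4 (right, CPM) in each library against the summed CPM of 20 cell cycle genes in that library, with blue points for Ag (numbered by replicate) and red points for Ag+Costim. Ag replicates 1, 3 and 4 hold the higher Ikzf2 and Ikzf4 values at 1569, 7308 and 1684 CPM of cell cycle genes, and Ag replicates 2 and 5 sit beside the Ag+Costim libraries.

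The Ikzf5 groups overlapped. Its level was 12.2, 13.0, 15.2, 14.2 and 9.80 CPM in Ag, and 14.7, 17.2, 15.9, 19.8 and 14.5 CPM in Ag+Costim, and Ag replicate 3 was above 2 Ag+Costim libraries. The log2 fold change was 0.35 ± 0.16 (edgeR adjusted p = 0.268), and it was 0.20 with DESeq2 size factors, 0.10 with upper quartiles and 0.03 with total counts. The annotated exons of Ikzf5 share 4652 bases with Pstk on the opposite strand, and the library kit does not mark strand, so that reads of the overlap could belong to either gene and the Ikzf5 value is uncertain.

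**Figure D2:**
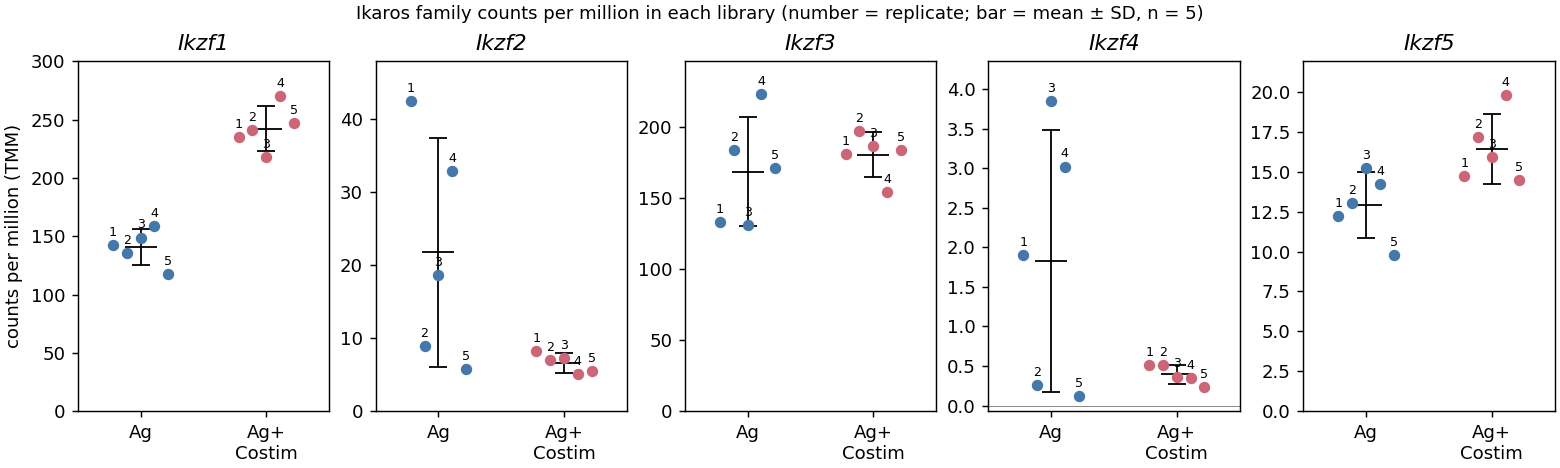
Level of each family member (CPM, TMM-scaled, linear axes) in the 5 Ag (blue) and 5 Ag+Costim (red) libraries, numbered by replicate, with the mean ± SD. The Ikzf1 groups do not overlap (118 to 159 CPM against 218 to 270.4 CPM), and the other members overlap between groups.

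**Figure D3:**
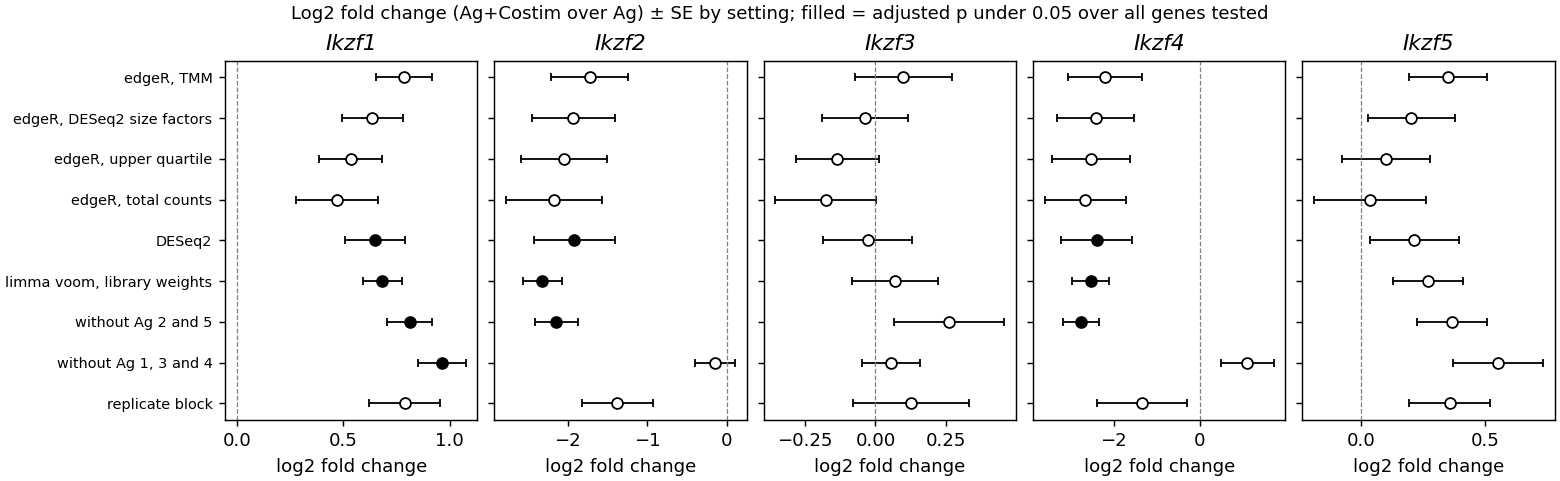
Log2 fold change of each member (Ag+Costim over Ag, x axis) ± SE in 9 fits that differ in scaling, test or libraries, with filled points where the adjusted p over all genes tested was under 0.05. Ikzf1 lies above 0 in all 9 fits, and Ikzf2 and Ikzf4 are near or above 0 only in the fit without Ag replicates 1, 3 and 4.

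Levels were compared between members per length, as TPM, the transcript counts divided by the annotated lengths and scaled to the library total. In Ag the order by mean was Ikzf3 (86.8 ± 27.1 TPM, SD, n = 5), Ikzf1 (64.4 ± 19.9), Ikzf2 (10.9 ± 10.9), Ikzf5 (6.94 ± 3.16) and Ikzf4 (0.711 ± 0.631). In Ag+Costim it was Ikzf1 (95.1 ± 8.05 TPM), Ikzf3 (81.5 ± 7.91), Ikzf5 (6.51 ± 0.83), Ikzf2 (2.64 ± 0.75) and Ikzf4 (0.119 ± 0.0373). The ranges of Ikzf1 and Ikzf3 overlapped in both groups, as did those of Ikzf2 and Ikzf5 in Ag, while the other neighbours in each order had separate ranges. On this scale the highest Ag library of Ikzf1 (82.1 TPM) was just above the lowest Ag+Costim library (82.0 TPM).

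The make-up of the family within a library needs no scaling between libraries. Ikzf1 made up 38.1% ± 4.51 of the family's TPM in Ag against 51.2% ± 3.82 in Ag+Costim (SD, n = 5), with ranges of 33.8% to 45.2% and 47.0% to 57.1% that did not overlap. Ikzf3 made up 52.0% ± 7.78 and 43.8% ± 3.80, with overlapping ranges. The ratio of Ikzf1 to Ikzf3 was 0.906, 0.635, 1.03, 0.619 and 0.586 in Ag and 1.19, 1.06, 0.986, 1.51 and 1.16 in Ag+Costim. Ag replicate 3 was the only Ag library above an Ag+Costim library, Ag+Costim replicate 3. The ratio of Ikzf2 to Ikzf1 was 0.329, 0.0576, 0.0682, 0.231 and 0.0418 in Ag and 0.0164 to 0.0392 in Ag+Costim. All Ag libraries were above all Ag+Costim libraries in this ratio, Ag replicates 2 and 5 by the least. The same held for the ratio of Ikzf5 to Ikzf1, at 0.0839 to 0.152 in Ag and 0.0561 to 0.0776 in Ag+Costim. For the ratio of Ikzf2 to Ikzf3 the groups overlapped, so that the separation is not particular to Ikzf2. The share of other gene pairs whose ratios separate was not computed. The family total did not separate the groups, at 170 ± 54.0 TPM in Ag against 186 ± 8.16 TPM in Ag+Costim.

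The transcript counts of Ikzf1 lay almost all on the transcript that includes exon 4 and ends at the farthest 3′ end. This transcript, Ikzf1-204 (515 codons), held 86.7%, 93.2%, 90.3%, 92.3% and 94.9% of the Ikzf1 counts in Ag and 84.3%, 93.7%, 93.8%, 93.99% and 85.2% in Ag+Costim. Ikzf1-203 (535 codons), which adds a coding exon of 60 bases and ends at the middle 3′ end, held 8.92%, 2.13%, 3.79%, 2.98% and 1.68% in Ag and 11.2%, 2.07%, 2.37%, 1.80% and 10.7% in Ag+Costim. Its share was high in Ag replicate 1 and in Ag+Costim replicates 1 and 5, and low in the other 7 libraries. Ikzf1-201, which skips exon 4 (428 codons) and ends at the nearest 3′ end, held 1.15% ± 0.73 in Ag against 1.32% ± 0.21 in Ag+Costim.

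The groups overlapped in exon 4 inclusion, whose level depended on whether counts were divided by transcript length. In counts it was 95.8%, 95.6%, 94.3%, 95.5% and 96.9% in Ag and 95.9%, 96.1%, 96.4%, 96.1% and 96.3% in Ag+Costim. The difference of 0.55 percentage points was within the spread of the Ag libraries (two-sided exact permutation test, p = 0.254; adjusted p = 1.0 over a family of 13 exon and end values of the 5 members). It was 0.22 without Ag replicate 3 (exact permutation p = 0.484), 0.87 without Ag replicate 5 (exact permutation p = 0.00794, adjusted p = 0.0516) and 0.97 without Ag replicates 2 and 5 (exact permutation p = 0.0179, adjusted p = 0.116). A longer transcript gives more counts per molecule, and the transcripts that skip exon 4 are shorter, with 446, 911 and 1542 bases against 5163 in Ikzf1-204. The 446-base model, Ikzf1-205, is annotated with an incomplete 3′ end. Its full length, and with it the level of inclusion per length, is therefore uncertain. With counts divided by transcript length, inclusion was 76.5%, 74.3%, 69.9%, 75.8% and 77.1% in Ag and 75.1%, 76.7%, 79.3%, 75.9% and 77.8% in Ag+Costim, and the difference was 2.27 percentage points (exact permutation p = 0.159, adjusted p = 1.0). The 60-base exon was included in 3.91% ± 2.92 and 5.65% ± 4.88 of counts (exact permutation p = 0.476). In this annotation the transcripts that include exon 4 are also those with the middle and farthest ends, so that exon and end are not separate measurements in the transcript counts.

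Psi (percent spliced in), which the authors computed with Whippet from the reads and deposited as 1 value per group, gave other levels than the transcript counts at exon 4 and at the 3′ ends. It has no replicate values, so that no test was possible, and a change is counted where the authors' probability was over 0.9 and the Psi difference over 0.05. Of all 138940 events in the table, 1.05% passed, and 4 of the 47 events in family members did, 3 of them ends of Ikzf1. The Psi values of these 3 ends sum to 1 in each group, so that they are not separate events. The family count can therefore not be set against the 1.05% as independent events. Exon 4 of Ikzf1 stood at a Psi of 0.679 in Ag against 0.690 in Ag+Costim, below the 94.3% to 96.9% inclusion in counts and nearer to the 69.9% to 79.3% per length. That per-length level depends in part on the incomplete model Ikzf1-205. The 60-base exon had 0.0119 and 0.0184, and the 168-base exon 0.997 and 0.9997. The exons of 123 and 135 bases that follow had 0.904 and 0.888, and 0.925 and 0.905. The small 5′ coding exons had 0.997 and 0.999, and 0.999 and 0.9995. None of the 7 core exons of Ikzf1 moved by more than 0.0205.

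The ends of the last Ikzf1 exon moved from the farthest towards the middle and the nearest end. The farthest end (chr11:11772113-11772926, 814 bases beyond the middle end) stood at a Psi of 0.511 in Ag against 0.264 in Ag+Costim. The middle end (chr11:11769799-11772112) had 0.480 and 0.651, and the nearest (chr11:11768881-11769798) had 0.00940 and 0.0843. All 3, which share 1 total and are not separate calls, passed both limits, as did 4.86% of the 14545 tandem end events in the table. Weighted by these Psi values, the mean length of the annotated 3′ UTR was 2925 bases in Ag and 2551 bases in Ag+Costim, over ends with 217, 2531 and 3345 bases of 3′ UTR. All 3 ends lie downstream of the same stop codon, so that the coding sequence of the last exon is the same for each.

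The transcript counts did not show this move. By them, the mean 3′ UTR length over the same 3 ends was 3243, 3292, 3235, 3289 and 3314 bases in Ag and 3219, 3281, 3282, 3282 and 3213 bases in Ag+Costim. The farthest end held 91.5% ± 3.14 of Ikzf1 counts in Ag against 90.2% ± 4.97 in Ag+Costim (SD, n = 5; exact permutation p = 0.667), against the Psi of 0.511 and 0.264. Divided by transcript length, the counts put 68.6% ± 2.71 and 68.1% ± 5.14 of Ikzf1 at the farthest end (exact permutation p = 0.873). These shares are over all annotated Ikzf1 transcripts, including short ones without any of the 3 ends. Over the 3 ends alone, as in Psi, the farthest held 87.4% to 96.4% per length in Ag and 84.1% to 93.1% in Ag+Costim. The mean 3′ UTR length over the 3 ends was then 3067 to 3275 bases in Ag against 3115 to 3183 bases in Ag+Costim. The 2 readouts thus differ in the level of the farthest end as well as in its change, and the cause was not tested.

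**Figure D4:**
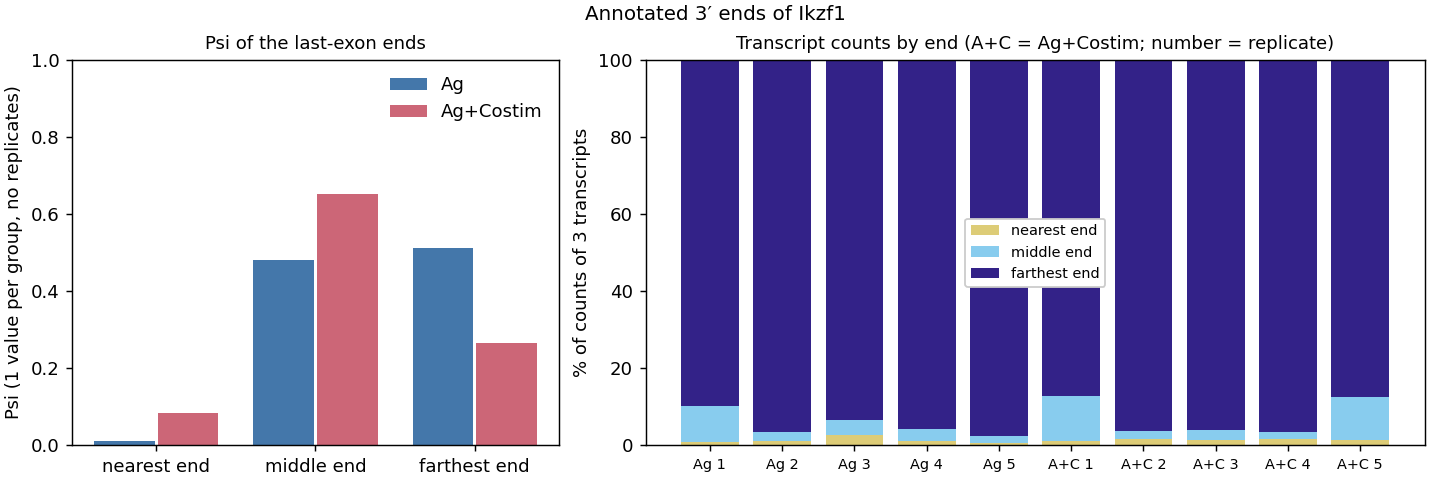
Left, Psi (y axis, 0 to 1, 1 value per group) of the nearest, middle and farthest 3′ end of the last Ikzf1 exon in Ag (blue) and Ag+Costim (red); right, percent of the counts of Ikzf1-201, Ikzf1-203 and Ikzf1-204, which carry these ends, in each library. The farthest end falls from 0.511 to 0.264 by Psi, while it holds over 80% of the counts in all 10 libraries.

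The last bases before each Ikzf1 end are shown because these ends carry the change in Psi, at chr11:11769769-11769798, chr11:11772083-11772112 and chr11:11772897-11772926 (+ strand, lower case throughout).
Ikzf1 nearest end: ggaacattcacaacatccatccttctagcc
Ikzf1 middle end: gctggtaaaggagggttttgcatgacctca
Ikzf1 farthest end: tgtttccaatcctttctaatacattttttc

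Neither AATAAA nor ATTAAA, the common poly(A) signals, was found on the transcript strand in the last 50 bases before any of the 3 ends, while 75.3% of the 20644 coding genes with a 3′ UTR that long hold either there. No match says only that these letters are not in this window. TGTGTG, searched on the transcript strand with overlaps counted, is the kind of repeat that the RNA-binding protein encoded by Tardbp is known to bind. It occurred 3 times in the 814 bases between the middle and the farthest end, 1 time between the nearest and the middle end and 0 times before the nearest end. Of the last 814 bases of all 3′ UTRs at least as long as that of Ikzf1, 44.3% hold it. Over the whole 3′ UTR it occurred 4 times in Ikzf1, 28 times in Ikzf2, 1 time in Ikzf3, 39 times in Ikzf4 and 1 time in Ikzf5, in windows of 3345, 7554, 2084, 3205 and 2985 bases, and 88.1%, 98.0%, 75.2%, 86.8% and 85.3% of 3′ UTR windows of these lengths hold it. A match is a description and not a binding site. Tardbp itself had a level of 111 ± 35.7 CPM in Ag against 158 ± 15.6 CPM in Ag+Costim (log2 fold change 0.51 ± 0.21, edgeR adjusted p = 0.261).

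The coding exon of 94 bases of Ikzf4 (chr10:128643875-128643968, - strand) had the largest Psi difference of the family, 0.882 in Ag against 0.285 in Ag+Costim, and passed both limits, as did 0.338% of the 108413 core exon events. Its length is not a multiple of 3, so that skipping it shifts the reading frame. It is shown in capitals between its neighbours.
Ikzf4 94-base exon start: caagggaaggataatCTGGAGAGGGAGCTC
Ikzf4 94-base exon end: CTTTATTTTGTGAAAgtagcggggactcat
Ikzf4 94-base exon skipped: caagggaaggataatgtagcggggactcat

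The transcript counts again gave another value for this exon. Among counts on transcripts that span it, it was included in every count of 9 of the 10 libraries and in 99.5% of counts in Ag+Costim replicate 2, with 1 of 2964 counts on a transcript that skips it. Ikzf4-206, which skips the exon, is annotated with 490 bases against 5150 in Ikzf4-201. These counts therefore cannot settle whether longer transcripts skip it. The reads behind the Psi values are not given in the sources used here, and Ikzf4 had at most 214 counts in an Ag+Costim library.

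No event of Ikzf2, Ikzf3 or Ikzf5 passed both limits. The 267-base exon of Ikzf2 that corresponds to exon 4 has an inner splice donor that removes 78 bases in frame, and the Psi of those 78 bases was 0.628 in Ag against 0.527 in Ag+Costim. The farthest Ikzf2 end had 0.617 and 0.772. In all, 8 of 12 Ikzf2 events differed by more than 0.05 and 0 passed the probability limit. In Ikzf3 the 258-base exon that corresponds to exon 4 had a Psi of 0.998 and 0.999, and none of the 6 core exons moved by more than 0.00176. In Ikzf5 the nearer of the 2 ends had 0.0885 and 0.220, without passing the limit on probability.

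No member changed its transcript, coding isoform or 3′ end usage in the tests per library. The test (edgeR diffSpliceDGE, gene-level Simes p, adjusted over all genes, with a share change over 0.1) called 31 of 10441 genes for transcripts (0.297%), 12 of 6814 for coding isoforms (0.176%) and 9 of 9569 for 3′ ends (0.0941%). Unadjusted p-values under 0.05 were found for 6.42%, 3.55% and 7.24% of these genes. Ikzf1, Ikzf2, Ikzf3 and Ikzf5 entered the tests of transcripts and ends, and Ikzf1, Ikzf2 and Ikzf5 that of coding isoforms. All had an adjusted p of 1.0, and the largest share change was 0.0904, at an Ikzf2 end. Ikzf4 could not be tested, because nearly all its counts lay on 1 transcript.

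Ikzf2 had the most mixed transcripts of the family. Its main coding transcript, Ikzf2-201 (526 codons), held 58.4%, 71.3%, 90.5%, 56.7% and 72.5% of counts in Ag and 52.2%, 63.4%, 67.1%, 70.4% and 58.5% in Ag+Costim. Most of the rest lay on Ikzf2-205, a model with a retained intron near the 5′ end, at 29.8%, 25.1%, 7.85%, 30.9% and 11.3% in Ag and 32.9%, 20.03%, 23.9%, 19.6% and 25.3% in Ag+Costim. Another such model, Ikzf2-203, had 2.57% ± 3.02 and 8.25% ± 2.77, and Ikzf2-202 (500 codons) 6.47% ± 5.90 and 4.37% ± 1.65. All of these ranges overlapped between groups. Ikzf2-201 is much longer than these models, and divided by transcript length it made up 36.1% ± 18.1 and 26.4% ± 5.95. Models with a retained intron took 5.27%, 2.74%, 3.89%, 5.11% and 2.18% of all counts in Ag and 2.53% to 3.14% in Ag+Costim.

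Most counts of Ikzf3, Ikzf4 and Ikzf5 lay on 1 coding transcript each. Ikzf3-201 (507 codons) held 91.8% ± 3.04 of counts in Ag against 94.6% ± 0.94 in Ag+Costim (exact permutation p = 0.0476, adjusted p = 0.619 over the family of 13), with the lowest value, 86.8%, in Ag replicate 1. The model with a retained intron, Ikzf3-203, held 10.2% there. Ikzf4-201 (586 codons) held 98.3% ± 3.72 and 99.9% ± 0.21, and Ikzf5-201 (419 codons) 96.0% ± 3.76 and 97.3% ± 1.10. Divided by transcript length, Ikzf3-201 made up 84.2% ± 2.49 and 87.6% ± 0.92 (exact permutation p = 0.0159, adjusted p = 0.206), Ikzf4-201 97.0% ± 6.63 and 99.1% ± 2.11, and Ikzf5-201 75.9% ± 17.4 and 84.8% ± 5.34.

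**Figure D5:**
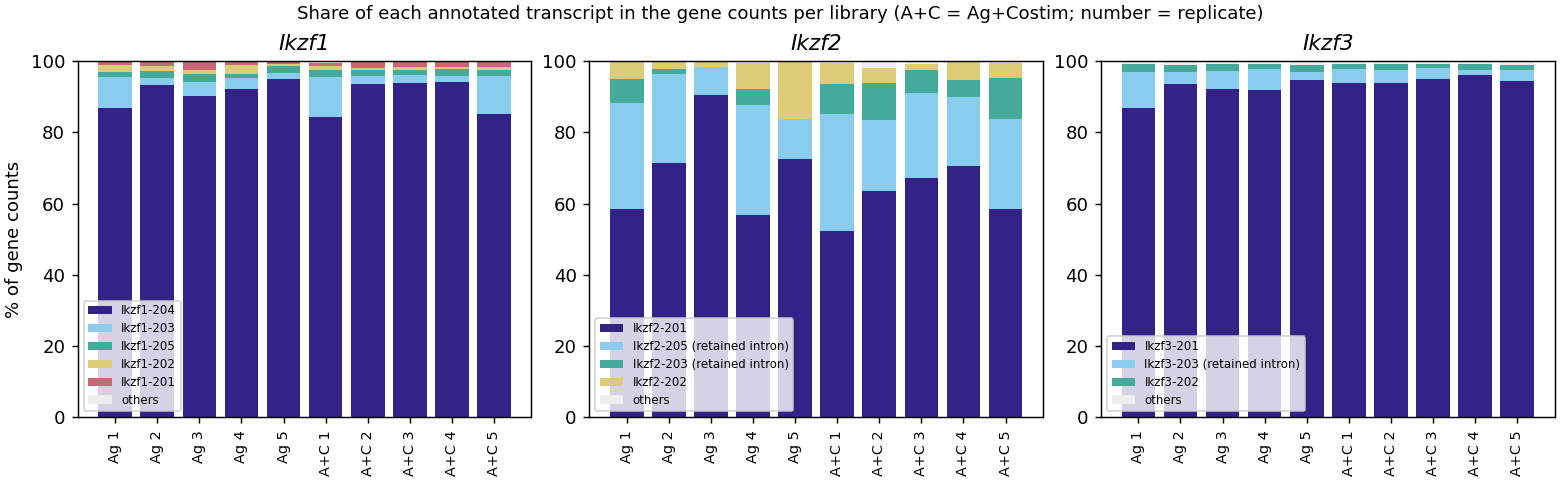
Percent of the gene's counts on each annotated transcript (stacked bars) of Ikzf1, Ikzf2 and Ikzf3 in the 5 Ag and 5 Ag+Costim libraries. Ikzf1-204 and Ikzf3-201 hold most counts in every library, Ikzf1-203 is raised in Ag replicate 1 and Ag+Costim replicates 1 and 5, and Ikzf2 is spread over coding and retained intron transcripts.

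None of the genes whose products work with the family passed the edgeR test. Of 17 corepressor genes of NuRD, Sin3 and CtBP, 0 passed the adjusted threshold, 5 had an unadjusted p under 0.05 and a higher level, and 0 a lower level. Among all genes, 7.89% had such a p and a higher level. DESeq2 called 3 of them higher and 0 lower, against 1.88% and 14.4% of all genes it tested, and limma voom with library weights 12 higher and 2 lower, against 25.8% and 26.4%. These shares include many genes of low level, 49567 genes in DESeq2, and were not computed over genes with at least 10 CPM. Of those 8626 genes, 6520 had a log2 fold change above 0, as did 14 of the 17 corepressor genes. Their median log2 fold change was 0.43, against -0.32 over all genes tested and 0.24 over genes with at least 10 CPM, and it was 0.28 without Ag replicate 1 and 0.18 without Ag replicates 1, 3 and 4. Sin3a, the scaffold of the Sin3 complex, had 52.8 ± 7.35 CPM in Ag against 78.3 ± 8.94 CPM in Ag+Costim. Mta1 and Mta2, subunits of NuRD, had 7.64 ± 1.35 and 11.1 ± 0.49 CPM, and 419 ± 107 and 599 ± 42.4 CPM. These 3 of 17 were the only corepressor genes whose groups did not overlap, against 11.3% of all genes with at least 10 CPM that were higher without overlap. Chd4, the NuRD ATPase, had a log2 fold change of 0.05 ± 0.19.

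Among 11 genes that act on the stability or phosphorylation of Ikaros proteins, 5 had an unadjusted p under 0.05 and a higher level, 0 a lower level and 0 an adjusted p under 0.05, with a median log2 fold change of 0.33. That median was 0.19 without Ag replicate 1, 0.05 without Ag replicates 1, 3 and 4 and 0.11 with upper quartiles. DESeq2 called 4 of them and limma voom with library weights 8, all higher, against 1.88% and 25.8% of all genes. These shares again include many genes of low level, so that they do not set the list apart from other well-expressed genes. A log2 fold change above 0 was found for 9 of the 11 genes, against 6520 of the 8626 genes with at least 10 CPM. Ddb1, the adaptor of the CRL4 ubiquitin ligase, had 245 ± 75.1 CPM in Ag against 415 ± 39.2 CPM in Ag+Costim. The cullins of that ligase, Cul4a and Cul4b, had 50.8 ± 10.6 and 74.5 ± 3.75 CPM, and 34.3 ± 9.17 and 52.5 ± 4.47 CPM. Ppp1cb, a catalytic subunit of protein phosphatase 1, had 147 ± 37.3 and 223 ± 11.4 CPM. The groups of these 4 of 11 genes did not overlap, against the same 11.3%. Crbn, the substrate receptor through which drugs direct CRL4 to Ikaros and Aiolos in human cells, had a log2 fold change of -0.10 ± 0.16 in these mouse cells. Without Ag replicates 1, 3 and 4, 2 genes of this list passed the adjusted threshold as higher and 2 as lower.

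Of 20 genes known as Ikaros targets in lymphocytes, 0 passed the adjusted threshold, 2 had an unadjusted p under 0.05 with a higher and 1 with a lower level, and the median log2 fold change was -0.13. That median turned to 0.12 without Ag replicates 1, 3 and 4. DESeq2 called 2 higher and 2 lower, together 4 of 20 against 16.3% of all genes, and limma voom with library weights 7 higher and 7 lower, together 14 of 20 against 52.2%. Myc, a driver of growth in activated T cells, had 61.1 ± 14.3 CPM in Ag against 101 ± 4.78 CPM in Ag+Costim and was the only target whose groups did not overlap. Il2, a cytokine gene that Ikaros is known to repress, had 1.62 ± 0.41 and 1.21 ± 0.20 CPM, with overlapping groups. Its log2 fold change was -0.42 ± 0.36 (edgeR adjusted p = 0.471). Of the 20 targets, 8 had a log2 fold change above 0, and a link of any of them to the Ikzf1 level was not tested.

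The genes with the pattern most like that of Ikzf1 over the 10 libraries, by Pearson's r of log2 CPM among 8625 other genes with at least 10 CPM, were Usp8 (r = 0.990), Kpna4 (0.979), 2610507B11Rik (0.978), Erlin2 (0.975) and Uggt1 (0.971). The points share their libraries and fall into 2 groups. Usp8 had 57.6 ± 7.66 CPM in Ag against 91.3 ± 5.50 CPM in Ag+Costim.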

How the data were processed

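Poly(A) RNA of sorted OT-I cells was amplified with SMART-Seq v4, made into Nextera XT libraries without strand information and sequenced in pairs. The submitters' processing notes name HISAT2 2.1.0, SAMtools 1.9, StringTie 2.1.0 and mm10. The authors deposited estimated counts per gene and transcript, which are whole numbers here, and Psi values as a fraction of 0 to 1 per group, with a probability score. The columns of their Psi difference were not used, and the score served only as their own limit. Entries without a GENCODE vM21 identifier, 0.0458% to 0.308% of counts per library, were left out. Depth limits Ikzf4 most, and intervals were not computed for shares because estimated counts are not independent molecules.

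Genes passing filterByExpr were tested with edgeR 4.0.16 (TMM, robust quasi-likelihood, R 4.3.3), and p-values were adjusted over all genes. DESeq2 1.42.0, limma 3.58.1, other scalings, filters and left-out libraries were alternatives. Transcripts, coding sequences and 3′ ends (merged within 100 bases) were tested with diffSpliceDGE. Named genes were all members, up to 4 list genes per direction with at least 10 CPM and no overlap between groups, transcripts with at least 5% of counts, the 5 genes most like Ikzf1, Psi events past both limits, Ikzf1 core exons and Tardbp. Chd4, Crbn, Il2 and the Ikzf2, Ikzf3 and Ikzf5 events below the limits were named outside this rule after their values were seen. The members and lists were chosen with earlier results of these data known. Same-numbered libraries did not pair: the correlation of their deviations was -0.303 to 0.251.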

Additional observations from a re-analysis of the deposited data

Results flagged for a closer look

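Of 44 sets of 5 libraries checked for a library far from the others, 4 stood out, and chance alone flags about 1 in 20. All 4 concern Ikzf4, and they are the same 2 values seen as a transcript share and as a 3′ end share. In Ag replicate 1, the share of counts on Ikzf4-201, which carries the distal end, was 91.6%, against at least 99.8% in the other Ag libraries. In Ag+Costim replicate 2 it was 99.5%, against every count in the other Ag+Costim libraries, a gap that comes from 1 count.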

How the results depend on the processing

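The number of members past the threshold was 0 in the edgeR fit and 3 (Ikzf1, Ikzf2 and Ikzf4) with DESeq2, with limma voom with library weights and without Ag replicates 2 and 5, and it was 1 (Ikzf1) without Ag replicates 1, 3 and 4. It stayed at 0 in the other 16 alternatives, which include the other scalings, no filter, the replicate block, the exact permutation test and each left-out library. The corresponding counts over the 48 genes of the partner, regulator and target lists were 0, 11, 36, 28 and 9. In the same order, these fits called 0.0%, 16.3%, 52.2%, 48.8% and 10.8% of all genes they tested. The cause was not tested beyond the left-out libraries themselves. With 1 library left out, the Ikzf1 log2 fold change ranged from 0.75 to 0.84 and that of Ikzf2 from -1.94 to -1.33. The Ikzf3 log2 fold change reversed to -0.036 (DESeq2 size factors), -0.13 (upper quartile), -0.18 (total counts) and -0.027 (DESeq2), and that of Ikzf4 to 1.11 without Ag replicates 1, 3 and 4. The Ikzf1 distal end difference of -1.28 percentage points ranged from -2.48 to 0.19 with 1 library left out, reversing without Ag+Costim replicate 1, and reversed to 0.43 without Ag replicates 2 and 5, that of Ikzf2 to 0.99 with protein-coding transcripts only, and that of Ikzf5 ranged from -0.20 (reversed, without Ag replicate 3) to 2.29 (without Ag replicate 2) with 1 library left out and was 3.21 without Ag replicates 2 and 5 and 8.92 with length-scaled counts, none of them past a threshold. The exon 4 difference of 0.55 percentage points ranged from 0.22 to 0.87 with 1 library left out and was 2.27 with length-scaled counts, and the 60-base exon difference of 1.74 ranged from 0.34 to 3.00. With the replicate block, 0 members and 0 of 24262 genes passed, as without it, and 0 Ag libraries resembled the Ag+Costim library of their own number the most. The number of members with a usage call, and of exon and end values past the threshold, stayed at 0 in every alternative run, and 3 or 4 member Psi events passed stricter limits.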
